A study of Mus musculus with 32 samples.

Results

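Bone morphogenetic protein (BMP) signalling was followed through 10 genes of its pathway: the ligands Bmp2, Bmp4 and Bmp7, the receptor Bmpr1a, the 4 inhibitor-of-differentiation genes Id1, Id2, Id3 and Id4, the inhibitory SMAD gene Smad6 and the homeobox gene Msx2. They were chosen by symbol and matched to their Ensembl identifiers, and are 10 of the 31053 genes with counts. All 10 were among the 15280 genes that reached 1 CPM, the counts-per-million scale, in 4 or more of the 32 libraries, although Smad6 reached 1 CPM in 14 libraries and Msx2 in 7. The cells were C1, one mouse embryonic stem cell (ESC) line with both copies of the β-catenin gene deleted over the whole coding sequence, which carried a doxycycline-inducible transgene for β-catenin S33Y, a constitutively active form, fused to mCherry and a destabilizing domain. The fusion is thus made in the presence of doxycycline (dox), and it escapes degradation when the domain is bound by trimethoprim (TMP). All 8 groups therefore shared the deletion, the transgene and 48 h of TMP at 10 µM before sorting, and each had 4 libraries from cultures described as biological replicates. A figure caption of the paper places the 4 samples averaged for each group in the same experiment. The standard errors below may thus not cover the spread between experiments.

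At day 0, in 2i/L (LIF with inhibitors of MEK and of GSK3) by the study's methods, although the growth notes in the labels describe medium with serum and LIF, the group C1 had TMP alone, while C1M and C1H also had 100 ng/mL dox and were sorted for moderate and high mCherry. At day 4, after differentiation as a monolayer in NDiff227, a serum-free medium, C1T had TMP alone. C1MV and C1HV came from the sorted moderate and high cells with both inducers withdrawn (DMSO), and C1MDT and C1HDT came from the same 2 fractions with dox and TMP kept. C1T is thus the never induced control at day 4, and it differed from C1MV and C1HV in TMP during differentiation as well as in the earlier induction.

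BMP ligands are secreted dimers that bring type I receptors such as BMPR1A together with type II receptors. The activated type I receptor phosphorylates SMAD1, SMAD5 and SMAD9, which enter the nucleus with SMAD4 and switch on targets that include the Id genes. ID proteins lack a DNA-binding region and hold E proteins away from the tissue-specific basic helix-loop-helix (bHLH) factors that need them as partners. In mouse ESCs, BMP4 with LIF sustains self-renewal through Id genes, and later BMP signalling holds back neural fate.

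Reads came from QuantSeq, which primes at the 3′ end of polyadenylated RNA, so a count does not grow with transcript length. Total counts on genes lay between 1366951 and 3648787 per library, and 3 counts corresponded to between 0.822 and 2.19 CPM. Levels are given as CPM scaled with TMM factors, which lay between 0.946 and 1.05. Differences are log2 fold changes with their standard errors from edgeR's quasi-likelihood test in a single fit of all 32 libraries, and a gene was called at a Benjamini-Hochberg false discovery rate (FDR) under 0.05 over all 15280 genes. The share of uniquely aligned reads outside annotated genes was between 19.6% and 23.1% at day 0 and between 10.1% and 15.7% at day 4, where it was 10.1% to 11.5% with inducers kept, 12.5% to 15.7% after withdrawal and 14.4% to 14.8% in C1T. Its part in the differences between days and between day 4 groups was not tested. In these bulk samples, fewer cells of a type and less RNA per cell cannot be told apart.

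The targeted gene, Ctnnb1, was still counted in C1, at 7.81 ± 2.63 CPM (SD, n = 4). Which transcript these reads came from was not tested, and the counts check the induction and not the deletion. It was at 12.3 ± 3.84 CPM in C1M, 41.2 ± 5.70 in C1H, 29.2 ± 4.29 in C1MDT and 30.8 ± 3.75 in C1HDT, against 9.74 ± 2.47 in C1T, 9.16 ± 2.57 in C1MV and 6.21 ± 1.84 in C1HV (SD, n = 4 each). The difference between C1M and C1 was 0.61 ± 0.25 (log2, SE) and did not pass the test (FDR = 0.0553). From C1 to C1T, 7 of 7 naive pluripotency markers fell and 4 of 4 post-implantation epiblast markers rose, led by Klf4, Tfcp2l1 and Tbx3 and by Pou3f1, Fgf5 and Dnmt3b.

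Markers of extraembryonic endoderm moved with the earlier induction at day 4, and these values stand beside each of the differences from C1T that follow. Of 9 tested markers, 8 were higher in each of the 4 induced groups than in C1T, with list medians (C1MV, C1MDT, C1HV and C1HDT in turn) of 3.38, 3.95, 3.50 and 3.97 on the log2 scale, and Ttr was lower in C1MDT and C1HDT. Their summed level was 376 to 577 CPM in C1T, 2560 to 3237 in C1MV, 4012 to 4460 in C1MDT, 2774 to 2961 in C1HV and 3845 to 4571 in C1HDT. Sox17 had 2 counts in the 4 C1T libraries together and 156, 226, 94 and 232 in the 4 induced groups, in the same order. Afp had at most 2 counts in any group. The list was already at 1389 to 1656 CPM in C1 at day 0, mostly as Sparc, and its part in the BMP results was not tested. Naive pluripotency markers also moved: 5 of 7 were higher than in C1T in C1MV and in C1HV, and 4 of 7 were lower in C1MDT and in C1HDT, while of 4 post-implantation epiblast markers 3 were lower in C1MV and in C1HV, 1 in C1MDT and 2 in C1HDT (list medians -1.36, -1.20, -0.28 and -0.43 in that order). The part of these lists in the results was not tested either. Of 3 tested primitive streak and mesoderm markers none was called against C1T by edgeR (0 at an unadjusted p under 0.05), and of 3 trophoblast markers Krt8 was higher in all 4 groups. Of 3 fibroblast markers 1 was higher in C1MV, 2 in C1HV and 1 in C1HDT, and of 3 general pluripotency markers 1 was lower in C1MV, 2 in C1MDT, 1 in C1HV (with 1 higher) and 2 in C1HDT.

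The 250 bases before the RefSeq start site (GRCm38.p6) were read for 7 members. They are shown, 5′ to 3′, for Bmp4 and Bmpr1a, which were highest in C1T, and for Id2 and Id4, which moved in opposite directions with differentiation, as far as they lie outside exons of the GENCODE annotation. Capitals mark GGCGCC, a GC-rich element bound by BMP SMADs.
Bmp4, chr14:46390670-46390919, minus strand: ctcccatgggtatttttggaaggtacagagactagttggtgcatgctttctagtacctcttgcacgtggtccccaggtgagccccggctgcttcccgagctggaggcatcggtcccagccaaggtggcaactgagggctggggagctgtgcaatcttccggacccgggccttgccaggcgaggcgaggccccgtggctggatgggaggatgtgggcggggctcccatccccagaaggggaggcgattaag
Bmpr1a, chr14:34502688-34502796, minus strand: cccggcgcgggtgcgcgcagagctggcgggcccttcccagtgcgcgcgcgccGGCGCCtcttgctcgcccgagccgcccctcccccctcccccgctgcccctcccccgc
Id2, chr12:25096254-25096342, minus strand: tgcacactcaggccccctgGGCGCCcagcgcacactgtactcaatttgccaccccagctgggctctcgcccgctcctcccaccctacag
Id4, chr13:48260866-48261115, plus strand: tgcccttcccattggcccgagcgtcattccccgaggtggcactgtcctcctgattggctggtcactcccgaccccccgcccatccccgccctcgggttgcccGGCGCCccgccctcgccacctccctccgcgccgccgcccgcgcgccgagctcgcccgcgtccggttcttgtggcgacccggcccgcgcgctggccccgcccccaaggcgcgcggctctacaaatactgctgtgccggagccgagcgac

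GGCGCC, which reads the same on both strands, occurred once in the windows of Bmpr1a, Id2 and Id4 and in 9.59% of all 32851 RefSeq windows of this length. CAGAC, the core of the SMAD-binding element, occurred once on each strand in the window of Id3, which lies in an exon of a longer transcript and is not shown, and in 42.2% of all windows on either strand. The TCF/LEF elements CTTTGAT and CTTTGTT, present in 3.21% and 5.03% of all windows on either strand, were not found in the 7 members' windows. None of these motifs overlapped another in them. The shown stretches of Bmpr1a and Id2 lie inside the span that GENCODE gives each gene.

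Bmp4 (ENSMUSG00000021835, chr14:46383520-46390669, minus strand), the ligand that supports ESC self-renewal, stood out in the never induced cells at day 4. The C1T libraries were at 52.3, 52.9, 45.3 and 48.3 CPM, and the C1 libraries at 6.72, 10.8, 6.23 and 8.63 CPM. Every C1T library was above every library of the 7 other groups, among which the highest was at 14.3 CPM. At day 0 the C1M libraries lay between 6.38 and 11.4 CPM and the C1H libraries between 5.58 and 12.6 CPM, overlapping C1. Bmp4 rose from C1 to C1T by 2.63 ± 0.22 (log2, SE; FDR = 1.38e-21).

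In the day 4 cells that had been induced, that rise was not seen. The C1MV libraries were at 7.26, 7.11, 8.36 and 14.3 CPM and the C1MDT libraries at 4.04, 4.42, 3.07 and 6.54 CPM. The C1HV libraries were at 5.17, 9.66, 8.17 and 2.602 CPM and the C1HDT libraries at 6.12, 7.64, 5.45 and 5.11 CPM. All 16 of these libraries were below all 4 of C1T. Against C1T, which these 4 comparisons share, Bmp4 was lower by -2.51 ± 0.22 in C1MV (FDR = 1.71e-20), -3.45 ± 0.23 in C1MDT (FDR = 2.04e-28), -2.91 ± 0.24 in C1HV (FDR = 2.32e-22) and -3.04 ± 0.22 in C1HDT (FDR = 1.95e-25; log2, SE). The largest of these, in C1MDT, was 11.0-fold.

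Within the induced arms, Bmp4 fell from day 0 where the inducers were kept, by 0.99 ± 0.29 from C1M to C1MDT (FDR = 0.00226) and by 0.76 ± 0.27 from C1H to C1HDT (FDR = 0.0117) on the log2 scale. The differences were -0.04 ± 0.26 from C1M to C1MV (FDR = 0.913) and -0.63 ± 0.28 from C1H to C1HV (FDR = 0.0592). Directly compared, C1MDT was below C1MV by -0.95 ± 0.30 (FDR = 0.0201), while C1HDT differed from C1HV by -0.13 ± 0.31 (FDR = 0.841). The fall in C1HDT was not called without C1H replicate 1, the difference between C1MDT and C1MV was not called without C1MV replicate 4 or C1MDT replicate 3 (-1.20 to -0.75 over the 8 fits that each left out 1 library), and that from C1H to C1HV was called without C1H replicate 2 (-0.84) or C1HV replicate 2 (-0.85), with library size alone (FDR = 0.0493) and among genes at 1 CPM in all libraries (FDR = 0.0453).

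Bmp7 (ENSMUSG00000008999, chr2:172868012-172940321, minus strand), a ligand of the same family, fell with differentiation. It was at 14.2 ± 2.69 CPM in C1, 15.0 ± 1.06 in C1M and 14.2 ± 1.55 in C1H (SD, n = 4 each), and the C1T libraries were at 5.28, 3.33, 3.81 and 6.53 CPM. No C1T library reached the lowest day 0 library, at 10.9 CPM. The fall from C1 to C1T was 1.61 ± 0.29 on the log2 scale (FDR = 7.35e-07). It fell by 0.84 ± 0.24 from C1M to C1MV (FDR = 0.00229), by 1.17 ± 0.24 from C1M to C1MDT (FDR = 1.57e-05) and by 1.00 ± 0.24 from C1H to C1HDT (FDR = 0.000212), and from C1H to C1HV it differed by -0.52 ± 0.24 (FDR = 0.0728).

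After withdrawal Bmp7 was higher than in C1T. The C1MV libraries were at 10.1, 5.24, 8.72 and 9.99 CPM and the C1HV libraries at 6.201, 9.09, 13.3 and 10.4 CPM, and the lowest of each lay below the highest C1T library. It was higher than in C1T by 0.85 ± 0.31 in C1MV (FDR = 0.0274) and by 1.10 ± 0.31 in C1HV (FDR = 0.00363; log2, SE). With inducers kept, the differences were 0.52 ± 0.32 in C1MDT (FDR = 0.215) and 0.62 ± 0.32 in C1HDT (FDR = 0.129). Directly compared, kept and withdrawn inducers differed by -0.33 ± 0.27 between C1MDT and C1MV (FDR = 0.497) and -0.48 ± 0.27 between C1HDT and C1HV (FDR = 0.251), neither past the test. The call in C1MV was lost without any 1 of C1T replicates 2 and 3 and C1MV replicates 1, 3 and 4 (0.73 to 1.05 over the 8 fits, highest FDR 0.103), and the difference from C1H to C1HV was called without C1HV replicate 3 (-0.72) and among genes at 1 CPM in all libraries (FDR = 0.0473).

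Bmp2 (ENSMUSG00000027358, chr2:133552159-133562885, plus strand), the third ligand, was near the limit of detection, with 0 to 18 counts per library. It was at 0, 1.70, 0 and 0.959 CPM in C1, at 1.27, 1.42, 1.63 and 1.24 CPM in C1M and between 0.341 and 2.09 CPM in C1H. The C1MDT libraries were at 4.61, 1.84, 5.03 and 4.47 CPM and the C1HDT libraries at 3.74, 4.30, 4.19 and 3.06 CPM. All C1MDT and C1HDT libraries were above the C1M libraries, and C1HDT was above C1H. Bmp2 rose by 1.48 ± 0.50 from C1M to C1MDT (FDR = 0.00843) and by 1.43 ± 0.50 from C1H to C1HDT (FDR = 0.0113; log2, SE), the latter lost without C1H replicate 1 (FDR = 0.0704).

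Bmp2 was not called against C1T, where the libraries were at 1.92, 2.08, 0.477 and 2.61 CPM. The differences were 0.38 ± 0.57 in C1MV, 1.18 ± 0.51 in C1MDT (FDR = 0.0622), 0.65 ± 0.57 in C1HV and 1.11 ± 0.52 in C1HDT (FDR = 0.0901). Over the 4 libraries of a group, 44 counts in C1MDT and 39 in C1HDT stood against 14 in C1T, ratios of 2.40 (95% interval 1.29 to 4.73) and 2.22 (1.18 to 4.43) that cover counting error only. It was called in C1MDT without C1T replicate 4 (1.39) or C1MDT replicate 2 (1.42), and from C1 to C1T, at 1.41 ± 0.76 with all libraries (FDR = 0.113), without C1 replicate 2 (2.27).

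**Figure D1:**
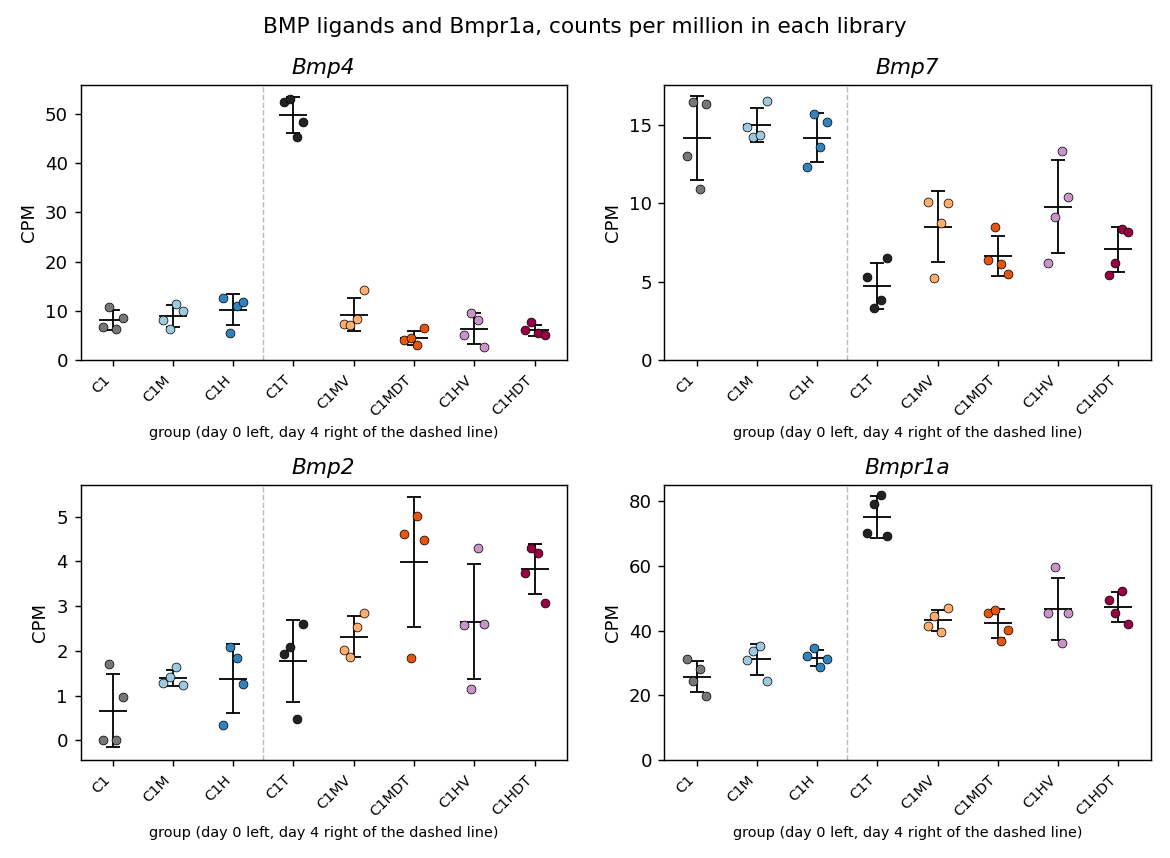
Levels (TMM-scaled CPM, linear axis) of Bmp4, Bmp7, Bmp2 and Bmpr1a in each of the 8 groups; each point is a library, and the bars are the mean and 1 SD of the 4 libraries. The Bmp4 points of C1T, from 45.3 to 52.9 CPM, stand apart from all other groups, and Bmpr1a is also highest in C1T, while Bmp7 is highest at day 0.

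Bmpr1a (ENSMUSG00000021796, chr14:34410734-34503341, minus strand), the type I receptor gene, rose in every arm and most in C1T. The C1 libraries were at 31.1, 24.3, 28.03 and 19.7 CPM and the C1T libraries at 70.1, 79.1, 82.0 and 69.2 CPM. C1M lay between 24.4 and 35.2 CPM and C1H between 28.6 and 34.5 CPM, overlapping C1. From C1 to C1T Bmpr1a rose by 1.54 ± 0.14 (FDR = 2.31e-19), and the rises in the induced arms were 0.45 ± 0.14 to C1MV (FDR = 0.00429), 0.42 ± 0.14 to C1MDT (FDR = 0.00625), 0.55 ± 0.14 to C1HV (FDR = 0.00056) and 0.58 ± 0.13 to C1HDT (FDR = 9.87e-05; log2, SE). The rise to C1MDT was not called without C1M replicate 4 (FDR = 0.0523).

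At day 4 the 16 libraries of the induced groups lay between 36.1 and 59.7 CPM, below all C1T libraries and above all day 0 libraries. The mean was 43.2 ± 3.30 CPM in C1MV and 42.3 ± 4.53 CPM in C1MDT, while C1HV was at 46.7 ± 9.70 and C1HDT at 47.2 ± 4.57 CPM (SD, n = 4 each), and neighbours in the order of these means overlapped. Against C1T the differences were -0.81 ± 0.13 (FDR = 4.85e-08), -0.85 ± 0.13 (FDR = 7.39e-09), -0.70 ± 0.13 (FDR = 3.95e-06) and -0.68 ± 0.12 (FDR = 2.62e-06) in the same order. Keeping or withdrawing the inducers made a difference of -0.03 ± 0.13 between C1MDT and C1MV and 0.03 ± 0.13 between C1HDT and C1HV, neither past the test (FDR = 0.921 and 0.925).

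Id1 (ENSMUSG00000042745, chr2:152736251-152737410, plus strand), the Id gene best known as a direct BMP-SMAD target, rose with differentiation in all arms. At day 0 it was at 2.39 ± 1.14 CPM in C1, 2.34 ± 1.57 in C1M and 2.84 ± 1.62 in C1H (SD, n = 4 each). The C1T libraries were at 7.68, 5.00, 4.29 and 7.18 CPM, all above C1. The rise from C1 to C1T was 1.33 ± 0.42 (FDR = 0.00468), and those from C1M and C1H were 2.15 ± 0.34 to C1MV (FDR = 2.67e-08), 2.92 ± 0.31 to C1MDT (FDR = 7.62e-16), 1.89 ± 0.33 to C1HV (FDR = 4.61e-07) and 2.42 ± 0.30 to C1HDT (FDR = 1.91e-12; log2, SE).

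Id1 was higher in each induced day 4 group than in C1T, the opposite direction to Bmp4. The C1MV libraries were at 9.68, 8.61, 13.8 and 9.99 CPM, the C1MDT libraries at 13.8, 20.7, 20.4 and 16.5 CPM, the C1HV libraries at 7.75, 10.8, 12.5 and 13.0 CPM and the C1HDT libraries at 15.0, 20.1, 10.9 and 17.7 CPM. All 16 were above all 4 C1T libraries. The differences were 0.83 ± 0.30 in C1MV (FDR = 0.026), 1.60 ± 0.27 in C1MDT (FDR = 4.38e-07), 0.88 ± 0.31 in C1HV (FDR = 0.0221) and 1.41 ± 0.28 in C1HDT (FDR = 1.38e-05; log2, SE). The call in C1MV was lost without C1T replicate 2 or 3 or C1MV replicate 3 (0.67 to 0.99 over 8 fits), and that in C1HV without C1T replicate 2 or 3 or C1HV replicate 3 or 4 (0.77 to 1.05).

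Keeping the inducers gave more Id1 in the moderate fraction, by 0.77 ± 0.24 in C1MDT against C1MV (FDR = 0.0185), while the difference in the high fraction was 0.53 ± 0.25 (FDR = 0.156). The first was lost without any 1 of C1MV replicates 1 and 2 and C1MDT replicates 2 and 3 (0.67 to 0.95). The test of the difference between the fractions gave no call for any member, and is described below with the counts.

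Id2 (ENSMUSG00000020644, chr12:25093799-25097140, minus strand) had the smallest standard errors of the Id genes and rose in all 5 arms. The C1 libraries were at 18.9, 23.2, 25.4 and 23.5 CPM, C1M between 22.7 and 25.8 CPM, C1H between 26.6 and 30.3 CPM, and the C1T libraries at 38.4, 33.7, 42.0 and 44.4 CPM. The C1MV libraries were at 57.7, 73.4, 72.3 and 57.8 CPM and the C1MDT libraries at 83.6, 76.3, 89.4 and 77.4 CPM. The C1HV libraries were at 70.3, 64.2, 71.0 and 65.1 CPM and the C1HDT libraries at 75.2, 87.4, 84.6 and 89.6 CPM. In order from low to high, day 0, C1T, the withdrawn groups and the groups with inducers kept did not overlap one another.

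Id2 rose from C1 to C1T by 0.80 ± 0.15 (FDR = 1.98e-06), to C1MV by 1.43 ± 0.13 (FDR = 7.76e-20), to C1MDT by 1.74 ± 0.12 (FDR = 1.45e-27), to C1HV by 1.27 ± 0.13 (FDR = 6.97e-17) and to C1HDT by 1.58 ± 0.12 (FDR = 3.23e-25; log2, SE), each against its own day 0 fraction. Against C1T it was higher by 0.75 ± 0.12 in C1MV (FDR = 2.22e-07), 1.06 ± 0.12 in C1MDT (FDR = 1.26e-13), 0.79 ± 0.13 in C1HV (FDR = 9.82e-08) and 1.10 ± 0.12 in C1HDT (FDR = 1.97e-14). With inducers kept it was higher than after withdrawal by 0.31 ± 0.11 in both fractions (FDR = 0.0444 in C1MDT and 0.0427 in C1HDT), a 1.24-fold difference close to the threshold. In the moderate fraction this call was lost without C1MV replicate 1 or 4 or C1MDT replicate 1 or 3 (0.25 to 0.37), and in the high fraction without any 1 library except C1HDT replicate 1 (0.26 to 0.34). It was also lost in the moderate fraction with library size alone (FDR = 0.0581), with no filter (FDR = 0.0765) and with the compared groups fitted alone (FDR = 0.0578), and in the high fraction in 6 of 7 alternatives (highest FDR 0.102).

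Id3 (ENSMUSG00000007872, chr4:136143497-136145755, plus strand) moved against C1T in the direction of Bmp4 and not in that of Id1 and Id2. The C1T libraries were at 11.5, 7.91, 4.29 and 9.14 CPM, of which the lowest lay within the C1 range of 3.96 to 4.67 CPM. The rise from C1 to C1T was 0.92 ± 0.36 (FDR = 0.0258), and no change was called from day 0 in the induced arms, where the differences lay between -0.36 ± 0.38 in C1MV and 0.29 ± 0.38 in C1HDT (log2, SE). The rise to C1T was lost without C1 replicate 1 or 2 or C1T replicate 1 or 4 (0.69 to 1.12, highest FDR 0.15).

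Against C1T, Id3 was lower by -1.15 ± 0.36 in C1MV (FDR = 0.00855), -0.88 ± 0.34 in C1MDT (FDR = 0.0348), -1.36 ± 0.39 in C1HV (FDR = 0.00349) and -0.89 ± 0.34 in C1HDT (FDR = 0.0325; log2, SE). The C1HV libraries were at 1.55, 1.14, 6.02 and 3.25 CPM, and the libraries of the other induced groups lay between 2.54 and 5.87 CPM. Each of the 4 groups overlapped C1T through C1T replicate 3. The call in C1HV held without each library in turn. That in C1MV was lost without C1T replicate 1 or C1MV replicate 3 (-1.35 to -0.92), that in C1MDT without C1T replicate 1, 2 or 4 or C1MDT replicate 2 or 3 (-1.08 to -0.65), and that in C1HDT without C1T replicate 1, 2 or 4 or C1HDT replicate 1, 2 or 4 (-1.11 to -0.68).

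Id4 (ENSMUSG00000021379, chr13:48261228-48266026, plus strand) was the single member that differed between groups at day 0. The C1 libraries were at 14.7, 28.9, 15.1 and 16.8 CPM, the C1M libraries at 8.49, 9.93, 10.1 and 9.49 CPM and the C1H libraries at 7.50, 16.0, 6.96 and 7.15 CPM. C1M lay below C1 throughout, and 1 library of C1H overlapped C1. Id4 was lower than in C1 by -0.96 ± 0.25 in C1M (FDR = 0.00187) and -0.97 ± 0.25 in C1H (FDR = 0.00165; log2, SE), and C1H and C1M differed by -0.01 ± 0.27 (FDR = 0.999). Without C1 replicate 2, the highest library, the calls were still made, at -0.72 (FDR = 0.0468) and -0.73 (FDR = 0.0421). Naive pluripotency markers moved at day 0 too, with 5 of 7 lower and 1 higher in C1M and 4 lower and 1 higher in C1H than in C1, and 2 of 3 general pluripotency markers were lower in each. Of 9 extraembryonic endoderm markers 2 were higher (Gata6 and Dab2) and 2 lower in C1M, and 2 lower in C1H. Of 3 fibroblast markers Thy1 was higher by 3.67 in C1M and 3.79 in C1H, and Col1a1 was lower in C1H by -1.27 (log2; FDR = 0.0327). Of 4 post-implantation epiblast markers 2 were higher (Otx2 and Pou3f1) and 1 lower (Dnmt3b) in C1M. In C1H 1 of them was higher (Pou3f1) and 1 lower (Dnmt3b). Of 3 tested primitive streak and mesoderm markers Kdr was lower by -0.88 in C1M and -0.71 in C1H (log2). Of 4 neuroectoderm markers Sox1 was lower in C1H by -0.59 (log2). The part of these markers in the Id4 difference was not tested.

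With differentiation Id4 fell to 2.88, 3.33, 1.91 and 5.88 CPM in C1T, a change of -2.46 ± 0.32 (FDR = 2.7e-11). It fell by 1.56 ± 0.32 from C1M to C1MDT (FDR = 1.64e-05) and by 1.60 ± 0.33 from C1H to C1HDT (FDR = 1.06e-05) on the log2 scale. After withdrawal the differences from day 0 were -0.44 ± 0.29 in C1MV (FDR = 0.211) and -0.24 ± 0.29 in C1HV (FDR = 0.526).

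The 4 groups at day 4 that had been induced thus fell into a withdrawn and a kept pair for Id4. The C1MV libraries were at 8.47, 4.12, 5.82 and 11.4 CPM and the C1HV libraries at 6.72, 10.2, 5.59 and 10.4 CPM, all above the C1MDT range of 2.58 to 3.79 CPM and the C1HDT range of 2.38 to 4.08 CPM. With inducers kept Id4 was lower by -1.12 ± 0.35 in the moderate fraction (FDR = 0.0197) and -1.36 ± 0.36 in the high fraction (FDR = 0.00303). Against C1T it was higher by 1.05 ± 0.37 in C1MV (FDR = 0.0213) and 1.25 ± 0.38 in C1HV (FDR = 0.00602), while C1MDT and C1HDT differed from C1T by -0.06 ± 0.42 (FDR = 0.934) and -0.12 ± 0.43 (FDR = 0.869; log2, SE). In the moderate fraction, the call against C1T was lost without C1T replicate 1 or 3 or C1MV replicate 1 or 4 (0.85 to 1.36), and that between C1MDT and C1MV without C1MV replicate 1 or 4 or C1MDT replicate 2 or 3 (-1.33 to -0.92).

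**Figure D2:**
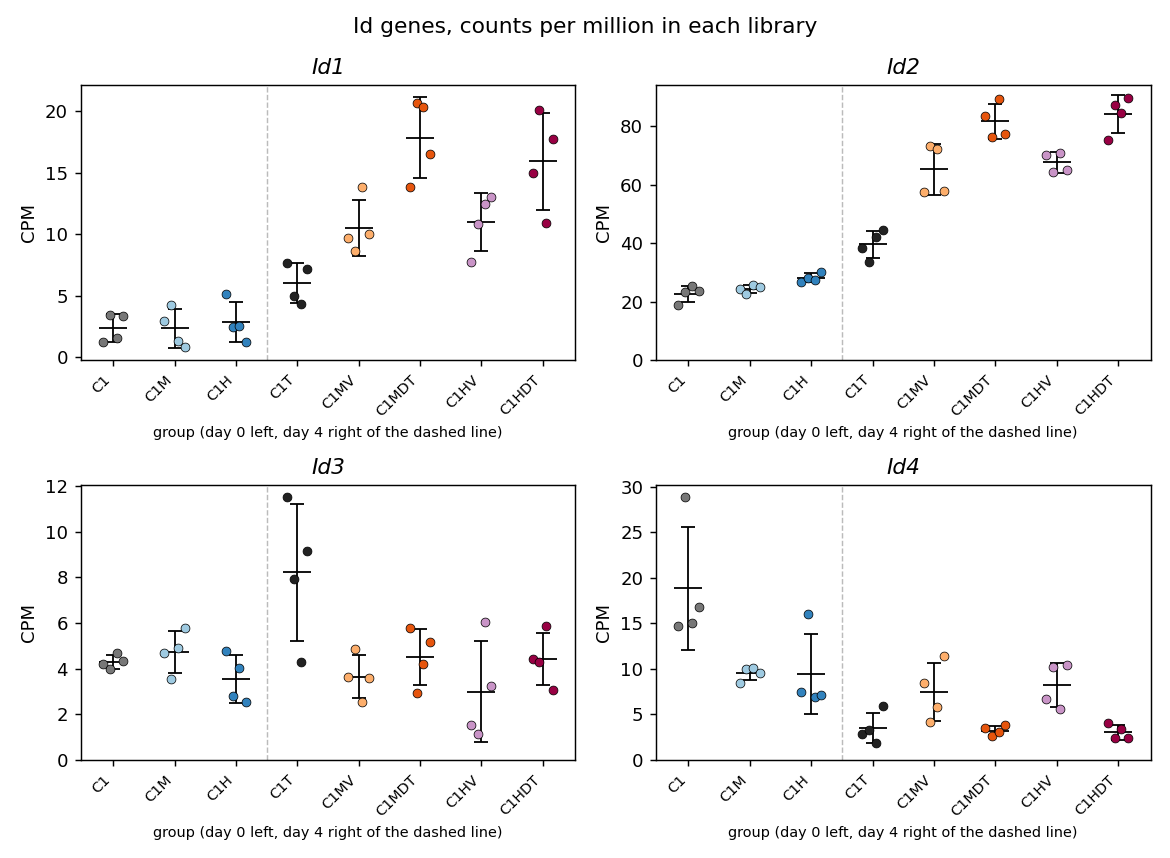
Levels (TMM-scaled CPM, linear axis) of Id1, Id2, Id3 and Id4 in each of the 8 groups; each point is a library, and the bars are the mean and 1 SD of the 4 libraries. Id1 and Id2 rise from day 0 through C1T to the induced groups, Id3 is highest in C1T, and Id4 is highest in C1 and higher in C1MV and C1HV than in C1MDT and C1HDT.

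Smad6 (ENSMUSG00000036867, chr9:63953076-64022059, minus strand), a BMP-induced gene whose product blocks the type I receptor, had 0 to 10 counts per library and was not called in any of the 16 contrasts. Its mean was highest in C1, at 1.85 ± 1.78 CPM, and lowest in C1MV, at 0.470 ± 0.351 CPM (SD, n = 4), and each neighbour in the order of groups overlapped the next. The difference from C1 to C1T was -1.31 ± 0.82 (log2, SE; FDR = 0.18). In C1HV 1 library had 6 counts and the other 3 had none, and without that library the fall from C1H was called (FDR = 0.00567).

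Msx2 (ENSMUSG00000021469, chr13:53466884-53473074, minus strand), a homeobox gene induced by BMP in many embryonic tissues, had 0 to 6 counts per library. The C1T libraries had 1, 0, 0 and 0 counts and the C1HDT libraries 1, 4, 6 and 3, at 0.340, 1.91, 2.51 and 1.02 CPM, and the groups overlapped. This was its only call, C1HDT against C1T (FDR = 0.0285), with 14 counts against 1 in the 2 groups, a ratio of 11.2 (95% counting interval 1.70 to 472). In C1HV it had 8 counts, a ratio of 9.05 (1.21 to 402; FDR = 0.0933). The call in C1HDT was lost without C1T replicate 2, 3 or 4 or C1HDT replicate 2 or 3 (highest FDR 0.101), and C1HV was called without C1T replicate 1 (FDR = 0.0434), when C1T had no count left.

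Counted over the 10 members, at day 0 none was higher and 1, Id4, was lower in C1M than in C1, where 14.3% of all tested genes were higher and 12% lower, and the same held in C1H, where 13.8% were higher and 12.1% lower. With scaling to library size alone the split over all genes moved from 2184 higher and 1838 lower to 2638 and 1447 in C1M, and from 2113 and 1852 to 2732 and 1376 in C1H. No member was called between C1H and C1M, where 0.713% of genes were higher and 1.06% lower in C1H (0 members at an unadjusted p under 0.05).

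From C1 to C1T 5 members rose (Bmp4, Bmpr1a, Id1, Id2 and Id3) and 2 fell (Bmp7 and Id4), beside 24.4% and 24.9% of all tested genes. From C1M to C1MV 3 rose and 1 fell, beside 22% and 23.9%, and from C1H to C1HV 3 rose and none fell, beside 22% and 25.1%. From C1M to C1MDT 4 rose and 3 fell, beside 24.5% and 27.9%, and from C1H to C1HDT 4 rose and 3 fell, beside 26.3% and 29.4%. Bmpr1a, Id1 and Id2 were the members that rose in all 5 of these comparisons. In each of the 4 induced arms 7 of 7 naive pluripotency markers fell and 4 of 4 post-implantation epiblast markers rose. Of 9 extraembryonic endoderm markers 9 rose to C1MV and to C1HV and 8 to C1MDT and to C1HDT, while 1 rose and 3 fell to C1T. Of 4 neuroectoderm markers 2 rose to C1T, 3 to C1MV (with 1 lower), 3 to C1MDT, 3 to C1HV and 4 to C1HDT. Of 3 tested primitive streak and mesoderm markers 1 fell to C1T and to C1HV, and 2 to C1MV, C1MDT and C1HDT. Of 3 tested trophoblast markers 2 fell to C1T, and 1 rose and 1 fell in each induced arm. The part of these lists in the members' changes was not tested. The median difference over the members was 0.86 from C1 to C1T, -0.12 to C1MV, 0.17 to C1MDT, 0.19 to C1HV and 0.43 to C1HDT, beside medians between -0.06 and 0.01 over all tested genes.

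**Figure D3:**
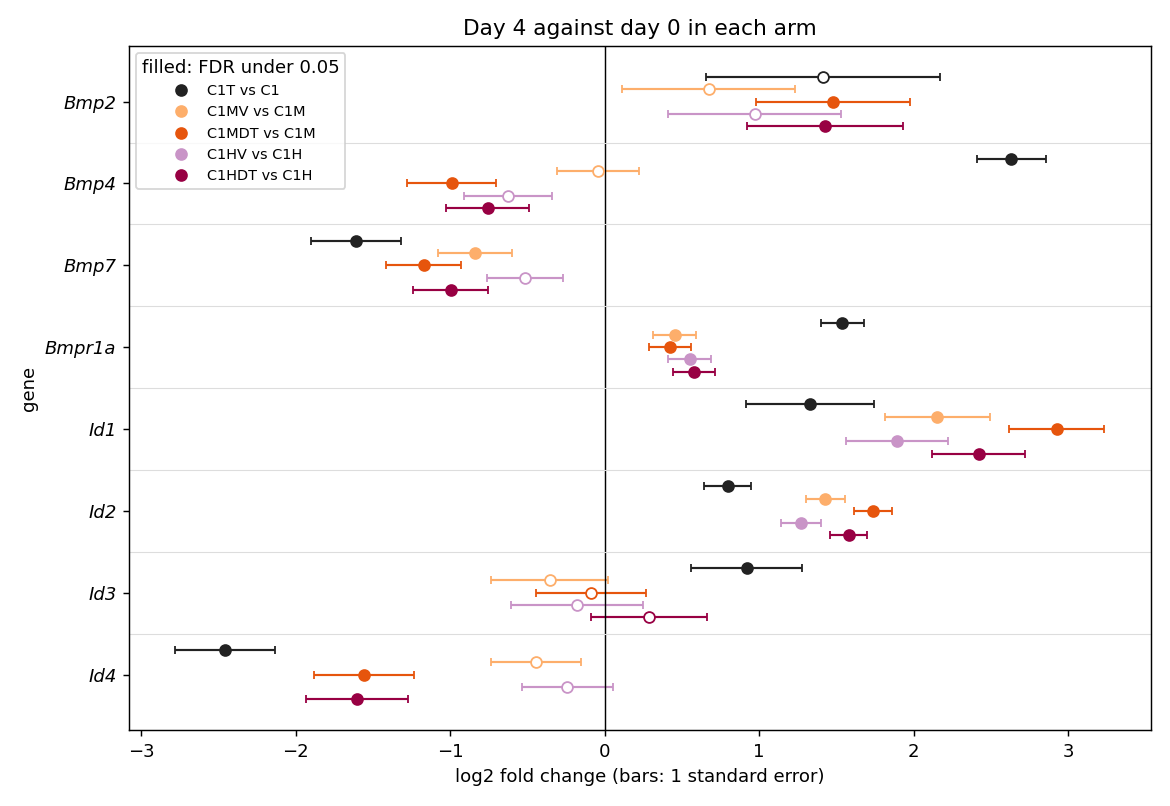
Log2 fold change from day 0 to day 4 in each of 5 arms for 8 members (Smad6 and Msx2, with few counts, are left out); points are edgeR estimates, bars 1 standard error, and filled points have an FDR under 0.05. Bmp4 rises by 2.63 in the never induced arm and in none of the others, whereas Bmpr1a, Id1 and Id2 lie above 0 in all 5.

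Against C1T, 4 members were higher and 3 lower in C1MV (15.3% and 14.9% of all tested genes), 2 higher and 3 lower in C1MDT (16.9% and 16.5%), 4 higher and 3 lower in C1HV (13.7% and 14.3%) and 3 higher and 3 lower in C1HDT (17.4% and 16.1%). Bmp4, Bmpr1a and Id3 were the 3 lower members and Id1 and Id2 were among the higher ones in each of the 4. With scaling to library size alone the split over all genes in C1HV moved from 2091 higher and 2182 lower to 2575 and 1762. In C1MV the members called fell from 7 to 4 without C1T replicate 3 or C1MV replicate 3. In C1HDT they fell from 6 to 4 or 5 in every fit without 1 library.

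**Figure D4:**
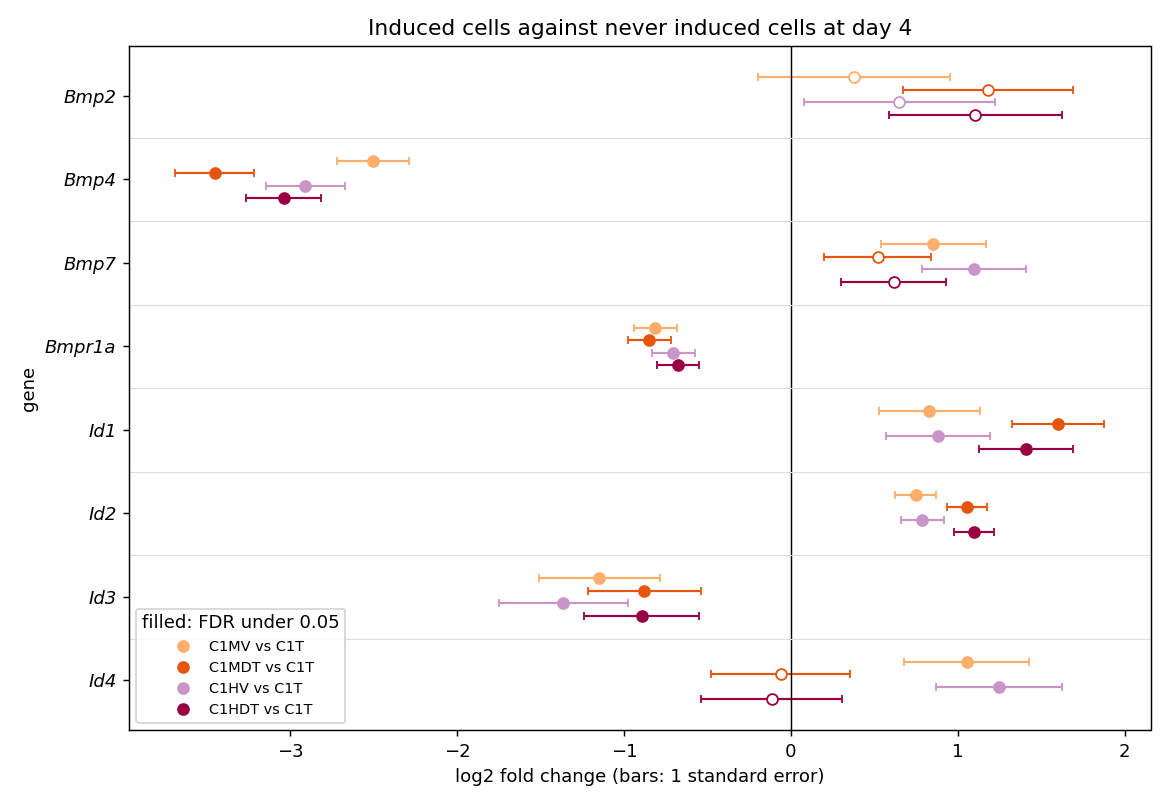
Log2 fold change against C1T at day 4 for 8 members (Smad6 and Msx2 are left out) in the 4 induced groups, which share the C1T libraries; points are edgeR estimates, bars 1 standard error, and filled points have an FDR under 0.05. Bmp4 lies between -3.45 and -2.51, Bmpr1a and Id3 lie to the left of 0 and Id1 and Id2 to the right in all 4 groups, and Id4 is to the right in C1MV and C1HV.

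Between kept and withdrawn inducers, 2 members were higher (Id1 and Id2) and 2 lower (Bmp4 and Id4) in C1MDT than in C1MV, beside 6.64% and 5.95% of all tested genes, and 1 was higher (Id2) and 1 lower (Id4) in C1HDT than in C1HV, beside 9.1% and 6.88%. In the same comparisons 6 of 7 naive pluripotency markers were lower in C1MDT and 7 of 7 in C1HDT, and in each fraction 3 of 4 post-implantation epiblast markers and 4 of 9 extraembryonic endoderm markers were higher, as were 2 of 4 neuroectoderm markers, while 1 of 3 general pluripotency markers was lower in each fraction and 1 was higher in C1HDT. Their part in the members' differences was not tested. With scaling to library size alone the split over all genes in C1HDT against C1HV moved from 1390 higher and 1052 lower genes to 1097 and 1331. The 4 calls in the moderate fraction fell to 1 without C1MV replicate 1 or 4, to 2 without C1MDT replicate 2 and to 0 without C1MDT replicate 3. The 2 calls in the high fraction fell to 1 without C1HV replicate 1, 2, 3 or 4 or C1HDT replicate 2, 3 or 4.

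Whether the effect of kept inducers differed between the fractions was tested directly, and edgeR called 0% of genes (0 of 15280, with 1284 at an unadjusted p under 0.05), while DESeq2 called 20 genes, with none of the members among them. No member had an unadjusted p under 0.05 in edgeR. For Bmp4 this difference of differences was 0.82 ± 0.43 (log2, SE; FDR = 0.63).

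A second direct test asked whether the signed difference between induced and never induced cells was the same at day 4 and at day 0, as the mean of the 4 induced day 4 groups minus C1T, less the mean of C1M and C1H minus C1. Of the 10 members 2 were higher, Id4 by 1.49 ± 0.39 (FDR = 0.00124) and Id2 by 0.71 ± 0.17 (FDR = 0.00056), beside 13.5% of all tested genes. The value of Id4 includes its day 0 differences from C1, -0.96 in C1M and -0.97 in C1H. A further 2 were lower, Bmp4 by -3.24 ± 0.28 (FDR = 5.57e-20) and Bmpr1a by -1.04 ± 0.17 (FDR = 1.05e-07; log2, SE), beside 14.9%. Id1 (1.02 ± 0.51, FDR = 0.126), Id3 (-1.004 ± 0.43, FDR = 0.068) and Bmp7 (0.73 ± 0.33, FDR = 0.0882) did not pass. Id3 was called without C1T replicate 3 (-1.19) or C1HV replicate 3 (-1.15) and among genes at 1 CPM in all libraries (FDR = 0.0402), and Bmp7 without C1T replicate 4 (0.92).

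Other genes of the pathway were counted from lists. Among 11 other BMP ligands, 3 were tested, and Bmp6, a close relative of Bmp7, was called higher than in C1T in all 4 induced groups, with 2 counts in C1T against 26 in C1MV and 37 in C1MDT for the moderate fraction and 24 in C1HV and 50 in C1HDT for the high fraction. In the same order the ratios were 11.8 (95% counting interval 2.95 to 102), 14.1 (3.64 to 121), 13.6 (3.37 to 119) and 20.0 (5.24 to 169). Bmp8a and Bmp8b were not called there. At day 0 Bmp6 and Bmp8b were both higher in C1M and in C1H than in C1, where Bmp6 had no count.

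Of 9 tested receptors and co-receptors, 1 was higher (Rgma) and 1 lower (Eng) in C1MV and in C1HV than in C1T, and 2 were higher in C1MDT (Rgma and Bmpr2) and in C1HDT (Bmpr2 and Acvr2b). RGMA is a BMP co-receptor, and BMPR2 and ACVR2B are type II receptors. Already at day 0, 3 of these 9 were higher (Rgma, Bmpr2 and Acvrl1) and 2 lower (Eng and Acvr2b) in C1M and in C1H than in C1. Rgma was higher there by 1.28 and 1.03, beside 0.74 in C1MV and 1.16 in C1HV against C1T. Eng was lower there by -0.65 and -0.76, beside -0.62 in C1MV and -0.70 in C1HV against C1T (log2). Among the 4 SMADs of the pathway (Smad1, Smad5, Smad9 and Smad4), Smad5 was lower in C1MDT by -0.31 (FDR = 0.0433) and no other was called against C1T. From C1 to C1T 2 rose, Smad4 by 0.84 and Smad5 by 0.38 (log2).

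Of 6 tested secreted or membrane antagonists, Fst (follistatin, which binds activins and BMPs) was lower than in C1T in C1MV (-1.62), C1MDT (-2.08) and C1HDT (-1.31), and none was called in C1HV (0 at an unadjusted p under 0.05). Of 5 intracellular inhibitors, Smurf2, a ubiquitin ligase for SMADs and receptors, was higher and Skil, a SMAD co-repressor, lower in all 4 groups, by 0.51 to 0.64 and -0.66 to -0.74 (log2). Smad7, the second inhibitory SMAD, was at 216 ± 12.4 CPM in C1 and 22.9 ± 5.32 CPM in C1T (SD, n = 4), a fall of 3.27 on the log2 scale (FDR = 3.85e-43), and was not called against C1T in the induced groups. Of 4 tested BMP-responsive genes beside the members, Hey1 was higher in C1HDT than in C1T (1.63, FDR = 0.0444) and no other was called against C1T. From day 0, 1 of these 4 fell to C1T, 3 to C1MV, 2 to C1MDT, 1 to C1HV and 2 to C1HDT, and none rose. Their list medians were -1.185, -1.544, -1.198, -1.307 and -1.395 in that order (log2), from genes with few counts. At day 0 Hey1 was higher in C1M than in C1 by 1.25 (FDR = 0.0421), and none of the 4 was called in C1H.

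Among E proteins, the partners that ID proteins bind, and neural bHLH factors, Tcf3 rose from C1 to C1T by 0.36 and Neurod1 by 2.97 (log2), and Neurog3, which had 1 count in C1 against 21 in C1T, rose as well. Neurod1 was lower than in C1T in C1MV (-2.19) and in C1HV (-2.26), and Neurog3 was lower in C1HV, with 3 counts. In C1MDT and C1HDT Tcf3, the gene of an E protein, was higher by 0.48 and 0.55 (log2). Of 4 neuroectoderm markers, 1 was lower in C1MV, 1 higher and 1 lower in C1HV, and 3 higher and 1 lower in C1MDT and in C1HDT, Pax6 being the lower one in each.

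For each member the genes with the most similar profile were those with the highest Pearson r of log2 CPM over the 32 libraries, which share 8 groups, among named genes whose mean log2 CPM was 3 or more. For Id2 they were H19 (r = 0.978) and Mcrip1 (0.976), for Bmpr1a Denr (0.942) and Cbx1 (0.92), for Id1 Commd3 (0.925) and Tspan4 (0.918), for Bmp7 Arvcf (0.902) and Ap3b1 (0.889), and for Bmp4 Lrpprc (0.897). For Id4 they were Ankrd12 (0.897) and Ube2q1 (0.88), and for Bmp2 Nat8l (0.823) and Gnb1 (0.808). The values were lower for Id3, Smad6 and Msx2: 0.673 with Timm17a and 0.651 with Mrps15 for Id3, 0.611 with Spata7 and 0.588 with Asap2 for Smad6, and 0.557 with Tmub1 and 0.533 with Sh3pxd2a for Msx2.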

How the data were processed

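RNA of 32 libraries, 8 groups of 4, was profiled by QuantSeq. The authors deposited, for each library, whole-number counts of uniquely aligned reads per Ensembl gene, without normalization; their methods name bbduk for trimming, STAR for alignment (mm10) and htseq-count for counting. The strand setting is not given in the sources used here: genes antisense to Bmp4 had 2 and 25 counts over all libraries against 918 for Bmp4, and those antisense to Bmpr1a and Id4 had 0. Summary lines of the counter were left out of library sizes. Groups were read from the labels. Symbols were matched for 30934 of 31053 genes.

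The 15280 genes reaching 1 CPM in 4 or more libraries were fitted with edgeR 4.0.16 in R 4.3.3 (TMM, quasi-likelihood, robust), FDR 0.05. Log2 CPM used a prior count of 2. Intervals of ratios are exact and cover counting error only, as does the floor of 3 counts. The labels number the replicates but name no pairing across groups, while the study treated replicates as batches in its batch correction. No library was a duplicate: the lowest chi-square per degree of freedom within a group was 1.54. Members and lists were chosen with earlier results of these data known. Genes were named by rule: the 10 members, Ctnnb1, up to 3 called genes with the largest change per list, and 2 genes most similar to each member; some of these are not reported here. Alternatives (RLE factors, library size alone, DESeq2 1.42.0, other filters, fits of the compared groups alone, a replicate block, and leaving out each library) are described below. Positions are from GENCODE M21 (GRCm38).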

Additional observations from a re-analysis of the deposited data

Results flagged for a closer look

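In 80 sets of 4 libraries (10 members in 8 groups), Dixon's test marked 4 in which 1 library stood apart from the other 3. Chance marks about 1 in 20 where values are normally distributed, which sets with few counts are not. A set with counts in only 1 library is always marked, as for Smad6 and Msx2 below. Id4 in C1 replicate 2 was at 28.9 CPM, with the next library at 16.8 CPM, and Id4 in C1H replicate 2 was at 16.0 CPM, with the next at 7.50 CPM. Smad6 in C1HV replicate 1 was at 3.10 CPM and Msx2 in C1T replicate 1 at 0.480 CPM, each with no count in the other 3 libraries.

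The difference between induced and never induced cells at day 4 departed from that at day 0 for 4 members by the interaction term of edgeR's fit: Bmp4 (-3.24), Bmpr1a (-1.04), Id2 (0.71) and Id4 (1.49), on the log2 scale.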

How the results depend on the processing

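Of 65 calls among 160 tests of a member, 48 were made in every alternative that tested the member and in every fit without 1 library, and no called difference changed sign. Against C1T the calls of Bmp4, Bmpr1a and Id2 were among these 48. The number of members called moved by over 1.5 times in 4 comparisons. It was 2 instead of 1 for C1H against C1 with library size alone, where Id2 was added (0.39, FDR = 0.0408). It was 1 instead of 2 for C1HDT against C1HV with RLE size factors, with library size alone, with no filter, with at least 1 CPM in all libraries, with DESeq2 and with the 2 groups fitted alone, where Id2 was lost each time. For C1MDT against C1MV, Id2 was also lost with library size alone, with no filter and with the 2 groups fitted alone. Without 1 library it ranged from 4 to 7 for C1MV against C1T, from 0 to 4 for C1MDT against C1MV and from 1 to 2 for C1HDT against C1HV. The filter on 1 CPM in all libraries left 6 members to test (neither Id1 nor Bmp2 among them), and DESeq2 gave no adjusted p to some of the low ones. With no filter, Id3 was not called in C1MDT against C1T (FDR = 0.0538).

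No pairing by replicate number was seen: the mean correlation of deviations from group means was -0.00163 for the same number and 0.000545 for different numbers, and 0 of 112 pairs exceeded 0.1. When replicate number entered as a block, the members called were 3 instead of 4 for C1MDT against C1MV (Id2 at FDR = 0.0514) and as many as without it in the other comparisons. Depth limits Smad6, Msx2 and Bmp2, whose libraries often had 3 counts or fewer.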
